A study of Mus musculus with 16 samples.

Results

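Open chromatin was mapped at the mouse counterparts of 10 genes that lie at human loci associated with type 2 diabetes: Tcf7l2, Jazf1, Zmiz1, Cdkal1, Igf2bp2, Dgkb, Adamts9, Thada, C2cd4a and C2cd4b. The source was pancreatic islets of 8 inbred strains, assayed by ATAC-seq: a transposase inserts adapters into open chromatin, so that reads pile up there. The strains were A_J (AJ below), C57BL/6J (B6), 129S1_SvImJ (129), NOD_ShiLtJ (NOD), NZO_HlLtJ (NZO), WSB_EiJ (WSB), PWK_PhJ (PWK) and CAST_EiJ (CAST). Each strain gave 1 female and 1 male sample of 50 islets, 16 samples in all, and no allele or treatment other than the strain was named. Age, diet and the number of animals behind a sample were not given in the sources used here, so a strain is known from 2 samples that differ in sex. The study calls CAST, PWK and WSB wild-derived, and the other 5 strains are called classical below. Peaks of the 16 lists on chromosomes 1 to 19 that overlapped or touched were merged into 347712 regions. The 529 regions that overlapped the GENCODE body of a member gene, or the 3 kb upstream of it, are the subject here (mm10 coordinates throughout).

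Most variants found in human association studies of type 2 diabetes lie outside coding sequence, and many sit in open chromatin of islets, the clusters of endocrine cells that hold the insulin-secreting beta cells. Their genes are named by position, so the gene through which a variant acts is often not settled. Tcf7l2 is a transcription factor of the Wnt pathway, Jazf1 a zinc finger cofactor of transcription and Zmiz1 a coactivator related to the PIAS proteins. Cdkal1 modifies a transfer RNA that reads lysine codons, and Igf2bp2 binds messenger RNAs, Igf2 among them. Dgkb is a kinase that turns the lipid messenger diacylglycerol into phosphatidic acid, and Adamts9 is a secreted metalloprotease. Thada was first found at chromosome breaks in thyroid adenomas, and C2cd4a and C2cd4b are a pair of small neighbouring genes of the C2 domain family.

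The reference sequence of 4 of the 5 regions with the smallest strain p, and of the promoters of C2cd4a and C2cd4b, is printed first, since these are the stretches whose signal is described below. Each line holds 200 bases around the median summit, on the plus strand of GRCm38 (mm10), which is the C57BL/6J reference. Sequence of the other strains was not read. Capitals mark matches, on either strand, to the short motifs of islet and general factors that were searched.
Cdkal1, chr13:29604353-29604552: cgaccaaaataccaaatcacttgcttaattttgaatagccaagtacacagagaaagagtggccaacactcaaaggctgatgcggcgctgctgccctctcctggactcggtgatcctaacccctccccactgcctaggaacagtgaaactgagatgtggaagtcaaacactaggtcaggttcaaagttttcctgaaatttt
Jazf1, chr6:53065366-53065565: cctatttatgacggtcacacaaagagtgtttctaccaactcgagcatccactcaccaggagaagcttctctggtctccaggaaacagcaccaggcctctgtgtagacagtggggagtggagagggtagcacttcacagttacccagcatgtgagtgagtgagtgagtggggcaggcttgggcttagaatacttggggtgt
Zmiz1, chr14:25519812-25520011: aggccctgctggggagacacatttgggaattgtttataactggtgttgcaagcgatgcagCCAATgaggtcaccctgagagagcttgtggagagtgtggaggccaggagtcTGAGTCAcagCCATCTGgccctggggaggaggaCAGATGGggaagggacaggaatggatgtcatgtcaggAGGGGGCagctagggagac
Dgkb, chr12:38112769-38112968: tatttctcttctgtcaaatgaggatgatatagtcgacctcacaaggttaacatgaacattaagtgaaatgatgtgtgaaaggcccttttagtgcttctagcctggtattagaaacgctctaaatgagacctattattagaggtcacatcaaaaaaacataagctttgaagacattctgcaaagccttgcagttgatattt
C2cd4a, chr9:67832273-67832472: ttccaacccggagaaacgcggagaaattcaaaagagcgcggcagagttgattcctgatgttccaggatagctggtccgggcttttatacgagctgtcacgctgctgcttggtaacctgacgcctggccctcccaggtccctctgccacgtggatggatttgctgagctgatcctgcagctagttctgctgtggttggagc
C2cd4b, chr9:67759247-67759446: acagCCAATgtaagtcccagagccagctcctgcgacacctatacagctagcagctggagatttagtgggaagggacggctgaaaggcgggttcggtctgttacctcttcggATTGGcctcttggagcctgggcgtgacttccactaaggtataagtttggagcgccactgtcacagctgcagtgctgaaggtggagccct

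Among these windows, that of Zmiz1 held 2 NEUROD matches (CAGATGG), an AP-1 match (TGANTCA) and a match to the CCAAT box. It also held the CTCF core, spelled AGGGGGC. The C2cd4b promoter held 2 matches to the CCAAT box. None of the searched letters was found in the other 4 windows. FOXA letters (TGTTTAC or TGTTTGC) stood in 10 of the 52 member regions called in all 16 samples (19.2%) and in 14% of the 40940 such regions genome-wide, while NEUROD letters stood in 7 of 52 (13.5%) against 7.87%. TAATTA, shared by PDX1 and NKX homeodomains, stood in 6 of 52 (11.5%) against 5.80%, and AP-1 letters in 5 (9.62%) against 12.7%. RFX letters (GTTGCCA) stood in 4 (7.69%) against 5.11%, the CCAAT box in 12 (23.1%) against 26.2% and the CTCF core in 3 (5.77%) against 7.25%. MAF (TGCTGAC), NKX2-2 (CACTTGA), CRE (TGACGTCA) and TCF/LEF (CTTTGAT) letters stood in 1 region each (1.92%), against 5.23%, 2.72%, 1.36% and 2.38%. Both strands were searched, and the counts were not tested. A motif match is a description of the letters and not a mapped binding site.

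The signal of a region is the height of its highest peak summit in a sample, as deposited, divided by the median of that sample over the 40940 regions called in all 16 samples, so a value of 1 is a typical shared region. A value of 0 means that the list of the sample holds no peak there. The lists held 77887 autosomal peaks (AJ male) to 167051 (WSB female), their median summit signals ran from 10 (PWK male) to 40 (NOD female), and read depth of single samples was not used here. As a check of the tissue, peaks stood in all 16 samples at the promoters of the 6 beta cell genes looked at (Ins1, Ins2, Iapp, Mafa, Pdx1 and Nkx6-1) and of the 3 pan-endocrine ones. No sample had a promoter peak at Ptf1a, Cel, Prss1 or Amy2a5 of the acinar cells, nor at Sst or Ppy, the hormone genes of delta and PP cells. At Hhex, the other delta cell gene looked at, a promoter peak stood in all 16 samples (0.0938 to 1.26). Endothelial genes (Pecam1, Cdh5 and Kdr) summed to 0 to 0.6, fibroblast genes (Col1a1, Col1a2 and Pdgfrb) to 0.247 to 0.691 and acinar genes (Cpa1 and Bhlha15 beside those named) to 0.395 to 1.16, while alpha cell genes (Gcg and Irx2) reached 3.67 to 6.52. The NZO male stood apart. It alone had peaks at the promoters of the duct genes Krt19 (0.691) and Sox9 (0.655). Its summed duct signal (Krt19, Sox9 and Cftr) was the highest of the 16 samples at 2.00 (lowest 0.292). So was its summed leukocyte signal (Ptprc, Cd74 and Cd3e) at 3.35 (lowest 0.568, NZO female 1.70). Cd74, at 2.85 in the NZO male, had a promoter peak in all 16 samples. Beta cell genes went both ways. Ins1 was at 1.45 against 4.77 in the NZO female, Ins2 at 0.382 against 0.617 and Iapp at 1.02 against 1.06. Mafa (3.67 against 2.16), Pdx1 (2.16 against 1.60) and Nkx6-1 (3.85 against 3.06) were higher in the NZO male. The 6 genes summed to 12.5 in the NZO male and 13.3 in the NZO female, within the 9.18 to 15.3 of all samples. Both NZO samples correlated at r = 0.848 over the shared regions, the lowest of the 8 strain pairs, whose highest was 0.973. In whole islets, a change in accessibility within a cell type and a change in cell numbers cannot be told apart.

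Of the 529 regions, 480 were intronic, 26 lay within 3 kb of a start site of their gene and 23 overlapped exons. The longest gene, Dgkb, held 163 regions over 816514 bases, and Cdkal1 held 129 over 663929 bases. Zmiz1 held 63, Jazf1 59, Thada 46, Tcf7l2 28, Adamts9 19 and Igf2bp2 18, while C2cd4a and C2cd4b held 2 each. Zmiz1 was the most densely covered of the 8 long genes, with 29.9 regions per 100 kb, and Adamts9 the least, with 10.9. Between 97 (AJ male, the shortest list) and 302 (WSB female, the longest list) of the 529 regions had a peak in a given sample. The counts did not follow list length throughout: the PWK male had 189 with 145886 peaks, the B6 female 191 with 117672. Per 1000 regions called, 1.36 (AJ male) to 1.92 (WSB male) were member regions, against 1.52 per 1000 among all regions.

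**Figure D1:**
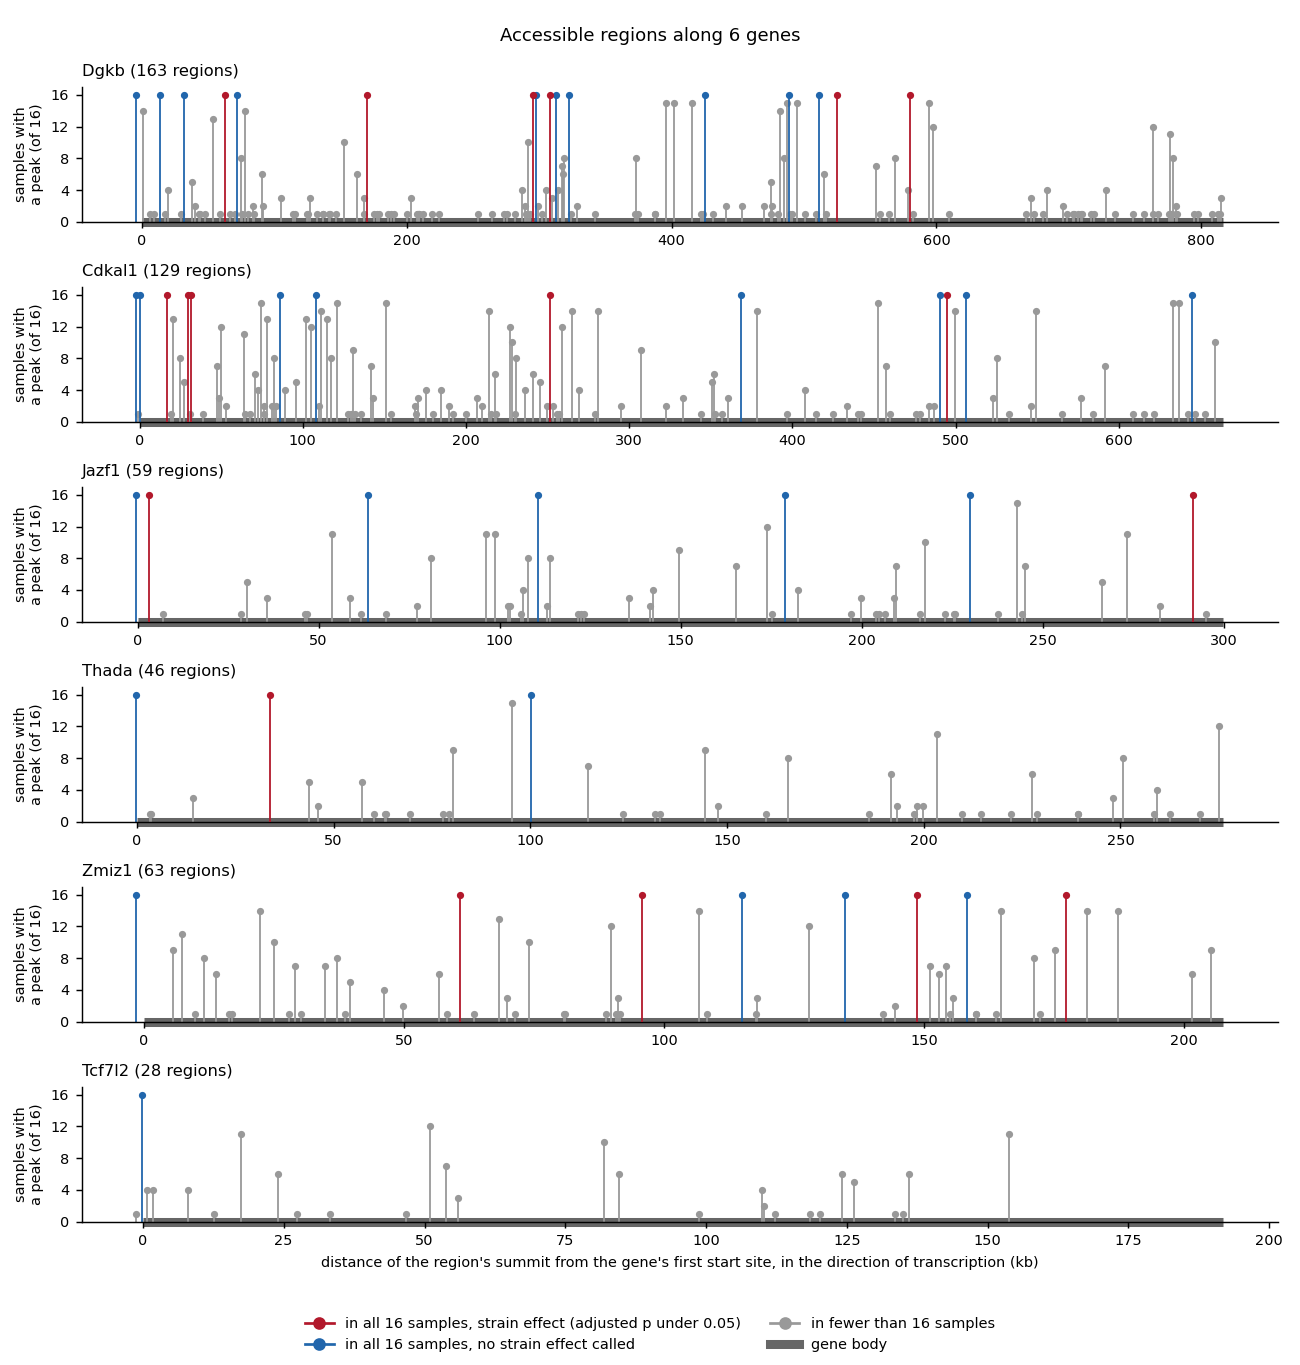
Accessible regions along the 6 genes with the most regions. The horizontal axis is the distance of the summit of a region from the first start site of the gene (kb), the vertical axis the number of the 16 samples with a peak, and the thick line the gene body. Red stems mark regions called in all 16 samples with a strain effect, blue stems the other regions called in all 16, and grey stems regions called in fewer. Dgkb had 92 regions called in 1 sample only and 16 called in all 16, whereas Tcf7l2 had 1 region called in all 16, at its promoter.

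A peak in all 16 samples was found for 52 of the 529 regions (9.83%), against 11.8% of all autosomal regions. These were 16 regions of Dgkb, 13 of Cdkal1, 8 of Zmiz1, 7 of Jazf1, 3 of Thada, 2 of Adamts9 and 1 each of Tcf7l2, Igf2bp2 and C2cd4b. Keeping only the stronger 50% of each list by p left 34 regions (6.43% of members against 7.05% of all regions). Requiring peaks to cover at least 50% of the merged region left 2 (0.378% against 1.09%). At the other end, 222 regions (42.0%) were called in 1 sample only, against 46.4% of all regions. In the lists that the authors filtered for peaks reproduced in both sexes of a strain, 28 of the 529 regions had a peak in all 8 strains, 50 in 1 strain and 370 in none. The matching shares of all regions were not computed, so these counts say nothing particular to the members. The 52 shared regions had a median width of 1089.5 bases (1144.5 for all shared regions) and a median GC content of 47.25% in the 200 bases around the summit (50% for all shared regions).

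The number of open regions in a gene depended on the sample as well as on the strain. In Tcf7l2, peaks were called at 18 regions in the WSB female, 15 in the WSB male, 13 in each CAST sample and 18 in the NZO male, but at 9 in the NZO female and at 2 to 8 in the other 10 samples. Thada had peaks at 31 regions in the NZO male, 9 in the NZO female and 3 to 20 elsewhere. The NZO male thus had the most Thada regions of any sample and, level with the WSB female, the most Tcf7l2 regions, while the NZO female did not stand out in either gene. Dgkb had most regions in the PWK male (76), the sample with the lowest summit signals, and Cdkal1 in the WSB female (92). The part that list length and summit height play in these counts was not tested.

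Promoter regions of all 10 genes were called in at least 13 samples (promoter here means the region within 500 bases of most start sites of the protein-coding transcripts). The Thada promoter (chr17:84465297-84466766, first exon and upstream) was the strongest, with scaled signals of 1.62 to 3.98 and a median of 2.13 over 16 samples. The C2cd4b promoter (chr9:67758092-67764275), which spans the whole gene and part of the noncoding gene M5C1000I18Rik, followed at 0.954 to 3.05 (median 1.71). Next came the main Dgkb promoter (chr12:37879816-37881750, 62792 bases into the gene body, where most of its coding transcripts start) at 0.792 to 2.35 and the Cdkal1 promoter (chr13:29855087-29855986) at 1.03 to 2.12. The Zmiz1 promoter (chr14:25456797-25462066, which also overlaps Zmiz1os1 and Gm47920) ranged from 0.631 to 2.53 and that of Jazf1 (chr6:53067437-53069176) from 0.627 to 1.53. Tcf7l2 had a weaker promoter signal (chr19:55741233-55741938) of 0.446 to 1.26, below the typical shared region in 13 of 16 samples. The ranges of neighbours in this order overlapped.

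Promoters of 3 genes were not listed in every sample. That of Igf2bp2 (chr16:22162624-22164682, GC content 80.5% at the summit) had no peak in either AJ sample or in the B6 male, and its signal was 0.412 to 1.03 in the 13 samples with a peak. At Adamts9 (chr6:92943400-92943878) a peak was missing in the AJ male alone, and the other values were 0.255 to 0.764, the highest in the NZO male. C2cd4a (chr9:67830600-67832557) lacked a promoter peak in the AJ female alone, and its other values were 0.291 (AJ male) to 1.10 (129 female). All 5 missing calls thus fell in AJ and B6. The AJ male had the shortest list of the 16. The lists of the AJ female (96126 peaks) and B6 male (108920) were longer than both 129 and both NOD lists. The median log2 difference between GC-rich and GC-poor shared regions was lowest in these samples. It was 0.65 in the AJ female, 0.60 in the AJ male and 0.52 in the B6 male, with 0.81 (NOD male) next. GC content at the summit was 71% for Adamts9 and 56% for C2cd4a. The part of list length and GC content was not tested, and a missing peak is not evidence of closed chromatin.

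**Figure D2:**
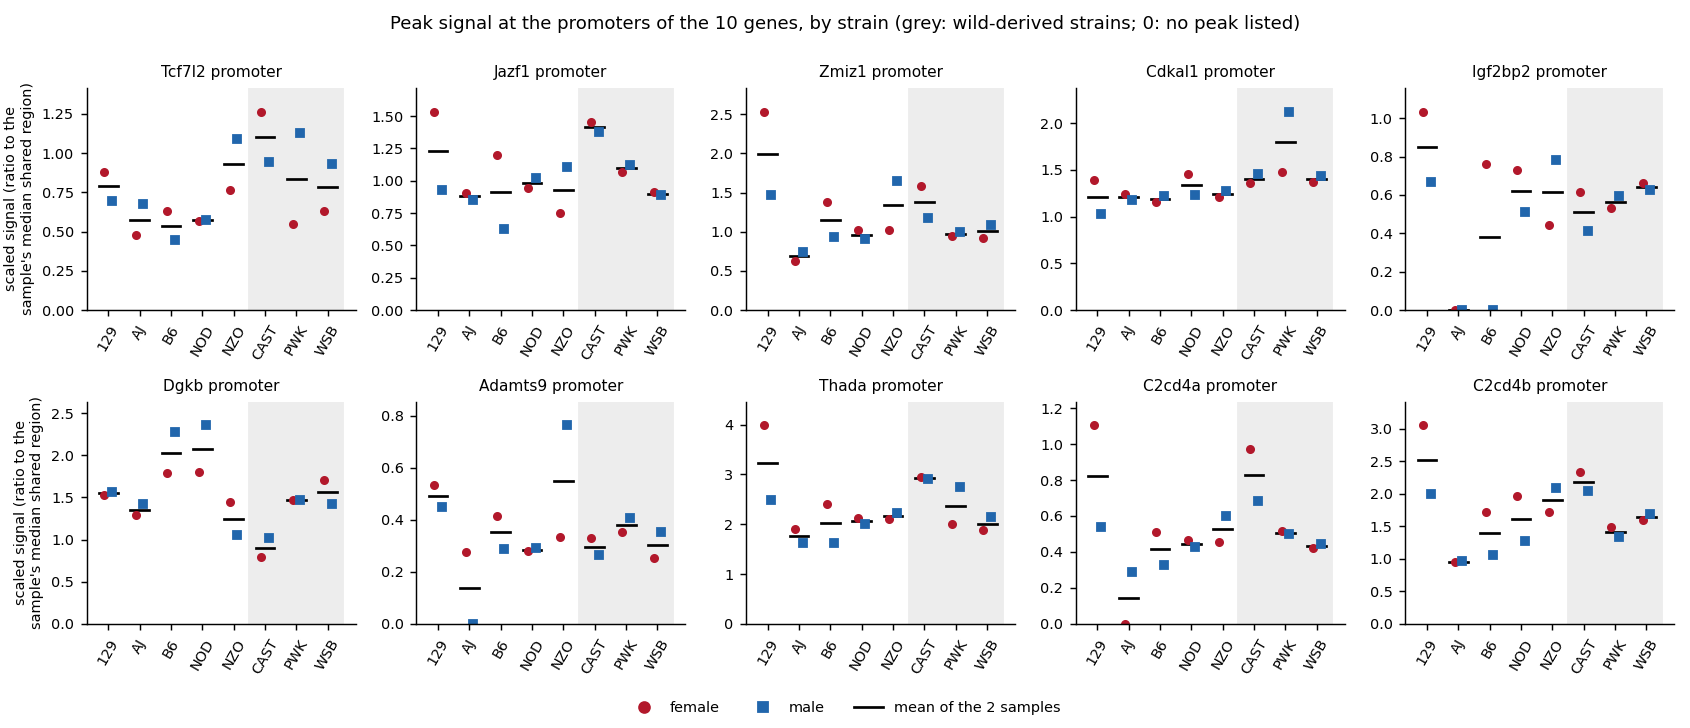
Scaled peak signal at the promoters of the 10 genes. Each panel shows the female (circle) and the male (square) of every strain, the line is their mean, the grey band holds the wild-derived strains, and 0 means that no peak was listed. The 129 female was the highest sample at the Jazf1, Zmiz1, Igf2bp2, Thada, C2cd4a and C2cd4b promoters, and AJ was low at most of them.

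The first comparison asked which regions differ between strains. A limma F-test across the 8 strains, with sex in the model, was run on log2(signal + 1) of all 40940 shared regions, with each sample centred on its median and Benjamini-Hochberg adjustment over all regions. It called 19 of the 52 member regions at an adjusted p under 0.05 (36.5%), against 35.7% of all shared regions, a share near the background. For single regions below, an adjusted p is that of this F-test unless another comparison is named, and it tests no single pair of strains. The calls were 6 of 16 regions in Dgkb, 5 of 13 in Cdkal1, 4 of 8 in Zmiz1, 2 of 7 in Jazf1, 1 of 3 in Thada and the C2cd4b promoter. No region of Tcf7l2, Igf2bp2 or Adamts9 was called, where 4 in all were tested. The spread between strains was also typical, with a median log2 ratio of highest to lowest strain mean of 1.18 in the members and 1.13 in all shared regions. Without 1 library the count fell to 7 (CAST female; 13.5% of members against 18.7% of all regions in the same fit), 8 (CAST male; 15.4% against 19.2%), 9 (AJ male; 17.3% against 27.2%), 10 (AJ female, 19.2% against 28.5%, or WSB male, 19.2% against 22.7%), 11 (NOD male; 21.2% against 24%) or 12 (NOD female, 23.1% against 23.8%, or WSB female, 23.1% against 23.2%), and it was 30 without the NZO female (57.7% against 60.1%). With no centring 31 regions were called (59.6% against 63.2% of all regions), and with mean in place of summit signal 10 (19.2% against 27.8%). The counts thus moved genome-wide, and the members lay at or below the background in each of these alternatives. They lay above it with a pseudocount of 10 (44.2% against 41.6%), no sex term (40.4% against 39.4%) and equal numbers of peaks (35.7% against 35.1%). The same held without the PWK strain (34.6% against 33.1%) and without either PWK sample.

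The smallest p for strain was at a Jazf1 region near the 3′ end of the gene (chr6:52775359-52777659, overlapping a coding exon, 291556 bases from the start site). Scaled signals were 0.323 and 0.375 in the PWK female and male. They were 0.628 and 0.707 in NOD, 0.708 and 0.727 in AJ, 0.704 and 1.02 in NZO, 0.962 and 0.882 in CAST, 0.953 and 0.977 in WSB, 0.940 and 1.02 in B6, and 1.07 and 1.16 in 129. Both PWK samples lay below all 14 others without overlap, and the sexes of each strain but NZO were close to each other. The mean of 129 (1.11 ± 0.064, SD, n = 2) was 3.19 times that of PWK (0.349 ± 0.037, n = 2), with an adjusted p of 0.00297 in the limma test. Without the PWK strain the adjusted p was 0.113, and the region stayed called in the other 32 alternatives tried. Over the 16 samples, the promoters with the most similar pattern were those of Zrsr1 (Pearson r = 0.911), Zmiz2 (0.909) and the shared start of Dusp18 and 4921536K21Rik (0.893), given as a description with no test.

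A second Jazf1 region, 3165 bases downstream of the start site (chr6:53065241-53065805, between exons), was the strongest of the gene and was lowest in CAST. Its scaled signals were 1.04 and 1.05 in CAST, 1.76 and 1.98 in NOD, 2.02 and 1.80 in AJ, 2.37 and 2.36 in WSB, 2.46 and 2.67 in B6, 2.62 and 3.06 in 129, 2.84 and 3.27 in NZO and 3.84 and 2.38 in PWK. CAST did not overlap any other strain, whereas the order of the higher strains is within their spread. The highest strain mean was 2.97 times the lowest (adjusted p = 0.00642), and the adjusted p was 0.206 without CAST and 0.255 at most over the alternatives. The promoter of Jazf1, about 3 kb away, was not called (adjusted p = 0.40).

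In Zmiz1, a region of an intron 60688 bases from the start (chr14:25519617-25520999), the one with the NEUROD and AP-1 letters, separated most samples by class. The 6 wild-derived samples had scaled signals of 1.95 and 1.71 (CAST), 2.10 and 1.62 (PWK) and 2.00 and 2.40 (WSB). Among classical strains the values were 0.897 and 0.942 in 129, 0.815 and 0.418 in AJ, 1.05 and 1.00 in B6 and 0.988 and 0.854 in NOD, but 1.38 and 3.33 in NZO. The groups therefore overlapped only through the NZO male, the highest of all 16 samples. The strain effect passed the test (adjusted p = 0.00989) and also without the NZO male (0.00165). The wild-derived strains were higher by 0.93 ± 0.34 (SE, 8 strain means) on the log2 scale, and this difference did not pass the adjustment (adjusted p = 0.308).

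Other called Zmiz1 regions followed different strains. At chr14:25606092-25609106, which overlaps a noncoding exon and has a GC content of 72% at the summit, AJ was lowest at 0.554 and 0.382 and the highest values were 1.84 in the 129 female and 1.60 in the CAST female (adjusted p = 0.0170, lost in 8 of 33 alternatives). At chr14:25636200-25636898, an intron region 177279 bases from the start, both NZO samples were lowest (adjusted p = 0.0151, lost in 5 of 32 alternatives, see the NZO contrast). The strongest region of the gene, intronic chr14:25573555-25575084, was at 1.71 (AJ female) to 3.64 (CAST male) and was not called (adjusted p = 0.0814), and neither was the promoter (0.0554).

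Cdkal1 held the region with the largest ratio between strains among the 10 with the smallest p. This was a short intron region 251221 bases from the start (chr13:29604309-29604608), with none of the searched letters in the sequence printed above. Scaled signals were 0.170 and 0.205 in WSB, 0.321 and 0.265 in CAST, 0.290 and 0.688 in PWK, 0.362 and 0.493 in 129, 0.407 and 0.610 in NOD, 0.630 and 0.509 in NZO, 0.714 and 0.807 in B6 and 0.631 and 1.02 in AJ. WSB lay below every other sample, and the PWK male lay above the other wild-derived samples. The mean of AJ (0.824 ± 0.27, SD, n = 2) was 4.40 times that of WSB (0.187 ± 0.025, n = 2; adjusted p = 0.00473). Reproducible peaks were listed there in AJ, B6 and CAST only.

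A pair of Cdkal1 regions nearer to the promoter had different strain orders. An intron region 31540 bases from the start (chr13:29823675-29824241) was highest in PWK, at 1.48 and 1.41, and lowest in 129, at 0.379 and 0.696 (adjusted p = 0.0137). A region 16855 bases from the start that overlaps an exon (chr13:29838625-29839115) was lowest in NZO and is described with the NZO contrast. The strongest Cdkal1 region (chr13:29364560-29366120, intronic) had values of 0.793 to 3.60, with both WSB samples (3.06 and 2.91) and the PWK female (3.60) on top. Its adjusted p of 0.0508 missed the threshold, and the promoter of Cdkal1 varied least of the 7 promoters called in all 16 samples (highest strain mean 1.52 times the lowest, adjusted p = 0.430).

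Dgkb held the strongest region of all members. It overlaps a coding exon 307938 bases into the gene (chr12:38123476-38126796), and its median scaled signal of 10.4 was above 99.2% of the 40940 shared regions. Scaled signals were 17.2 and 18.7 in AJ, 13.3 and 15.4 in B6, 13.9 and 14.1 in NOD, 14.4 and 9.12 in PWK, 7.45 and 11.7 in 129, 8.34 and 8.88 in WSB, 9.07 and 6.75 in NZO and 4.82 and 7.62 in CAST. Even the lowest sample stood far above a typical shared region, and AJ did not overlap the other strains. The mean of AJ was 2.88 times that of CAST, and the F-test across the 8 strains gave an adjusted p of 0.0198 (0.0792 without CAST). A neighbouring intron region (chr12:38112000-38113533, whose centre is printed above) had lower levels, with 1.06 and 0.909 in AJ, 0.988 and 0.902 in NOD, 0.953 and 0.739 in WSB, 0.798 and 0.723 in B6, 0.517 and 0.696 in 129, 0.330 and 0.529 in CAST, 0.419 and 0.406 in PWK and 0.494 and 0.273 in NZO. CAST, PWK and NZO were the low strains there (adjusted p = 0.0113).

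In Dgkb, CAST had the lowest mean in 8 and NZO in 4 of its 16 shared regions, and AJ had the highest in 8 and B6 in 5. The matching shares of all shared regions were not computed. Its main promoter was lowest in CAST as well, at 0.792 and 1.01, and highest in NOD, at 1.80 and 2.35 (adjusted p = 0.0341, lost in 15 of 33 alternatives, and 0.230 without CAST). Over the 19 called member regions, CAST was the lowest strain in 6 and NZO in 3, while AJ was the highest in 5 and B6 in 1. Among all called regions CAST was lowest in 30.5% and NZO in 10.3%, while AJ was highest in 17.3% and B6 in 10.2%. Dgkb had the lowest GC content of the long genes, with a median of 38.5% at the summits of its shared regions, against 50% over all shared regions. Signal of regions rich in GC relative to poor ones differed between samples: the median log2 difference between the top and bottom 33.3% of shared regions by GC ran from 0.52 (B6 male) to 1.78 (NZO male), with 1.58 in the 129 female, the second steepest, 1.41 and 1.23 in CAST and 0.65 and 0.60 in AJ. When samples were centred within 10 bins of GC content, 20 of 52 member regions were called for strain, a share of 38.5% against 40.1% of all shared regions. The strongest Dgkb region then had an adjusted p of 0.0337, but its call was lost in 8 of 33 alternatives, among them no centring, quantile normalization and mean signal, with an adjusted p of up to 0.142.

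Thada and C2cd4b had 1 called region each. The Thada region overlaps a coding exon 33911 bases from the start (chr17:84431719-84432775), with PWK lowest at 0.645 and 0.625, CAST at 1.53 and 1.65, and NZO apart between its samples at 1.83 and 0.800 (adjusted p = 0.0447, lost in 20 of 33 alternatives). The C2cd4b promoter was lowest in AJ, at 0.954 and 0.964, and highest in 129, at 3.05 and 2.00, with 2.34 and 2.04 in CAST, 1.73 and 2.09 in NZO, 1.59 and 1.69 in WSB, 1.97 and 1.27 in NOD, 1.48 and 1.34 in PWK and 1.73 and 1.06 in B6. Its adjusted p of 0.0287 was lost in 11 of 33 alternatives and was 0.0481 after centring within GC bins. C2cd4b and C2cd4a lie 69558 bases apart, and 22 regions lay in the stretch between them, 7 of these in all 16 samples.

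**Figure D3:**
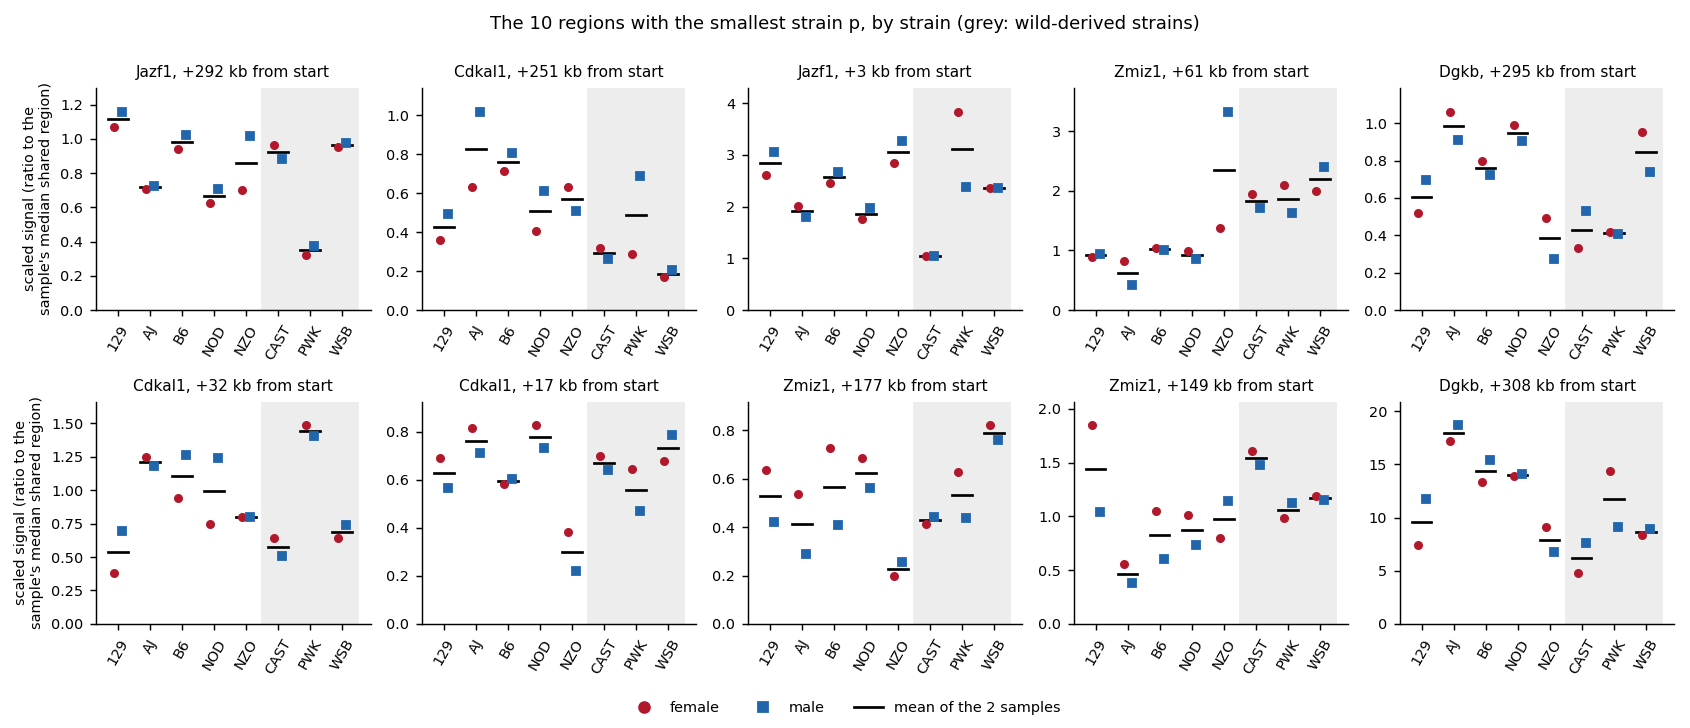
Scaled peak signal of the 10 member regions with the smallest strain p, named by gene and distance from the first start site. Circles are females, squares males, lines the mean of both samples, and the grey band holds the wild-derived strains. PWK is low at the Jazf1 region 292 kb from the start, CAST at the one 3 kb from it, WSB at the Cdkal1 region 251 kb from the start, and NZO at 1 region each of Cdkal1 and Zmiz1.

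Regions with few samples also showed strain patterns, which are counts without a test. Both samples of exactly 1 strain, and no other sample, had a peak at 19 of the 529 regions (3.59%), against 4.4% of all regions. They were 10 in WSB (1.89% of members against 1.01% of all regions), 4 in CAST (0.756% against 1.80%), 4 in NZO (0.756% against 0.322%) and 1 in PWK (0.189% against 0.974%). The highest signals among them were in an intron of Dgkb in PWK (chr12:38513267-38513409, 0.371 and 0.625), introns of Thada (chr17:84419504-84420468, 0.148 and 0.527) and Adamts9 (chr6:92850293-92850577, 0.247 and 0.527) in NZO, an intron of Igf2bp2 in NZO (chr16:22067600-22067799, 0.160 and 0.455) and one of Cdkal1 in CAST (chr13:29771666-29772310, 0.443 and 0.294). In each of these 3 NZO regions the male was the higher sample. It alone had promoter peaks at the duct genes Krt19 and Sox9, and its summed leukocyte signal was the highest of all samples. The part of duct cells and leukocytes was not tested. Only the Cdkal1 region was listed as reproducible in its strain.

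The regions named next were chosen after their values were seen. Both PWK samples lacked a peak that the other 14 samples had at 2 Cdkal1 intron regions, chr13:29574600-29575274 (0.310 to 1.84 in the others) and chr13:29354800-29356991 (0.140 to 0.698), which is 0.378% of members against 0.226% of all regions. Both AJ samples did so at 2 regions of Zmiz1 (chr14:25623533-25624451 and chr14:25646282-25646631) and 1 of Igf2bp2 (chr16:22123622-22123999), 0.567% against 0.181%. A region of a Dgkb intron (chr12:37980118-37980755) had peaks in all 6 wild-derived samples and in no classical one, 0.189% of members against 0.137% of all regions. Its signals were 0.604 and 0.515 in CAST, 2.66 and 0.812 in PWK and 0.123 and 0.193 in WSB.

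**Figure D4:**
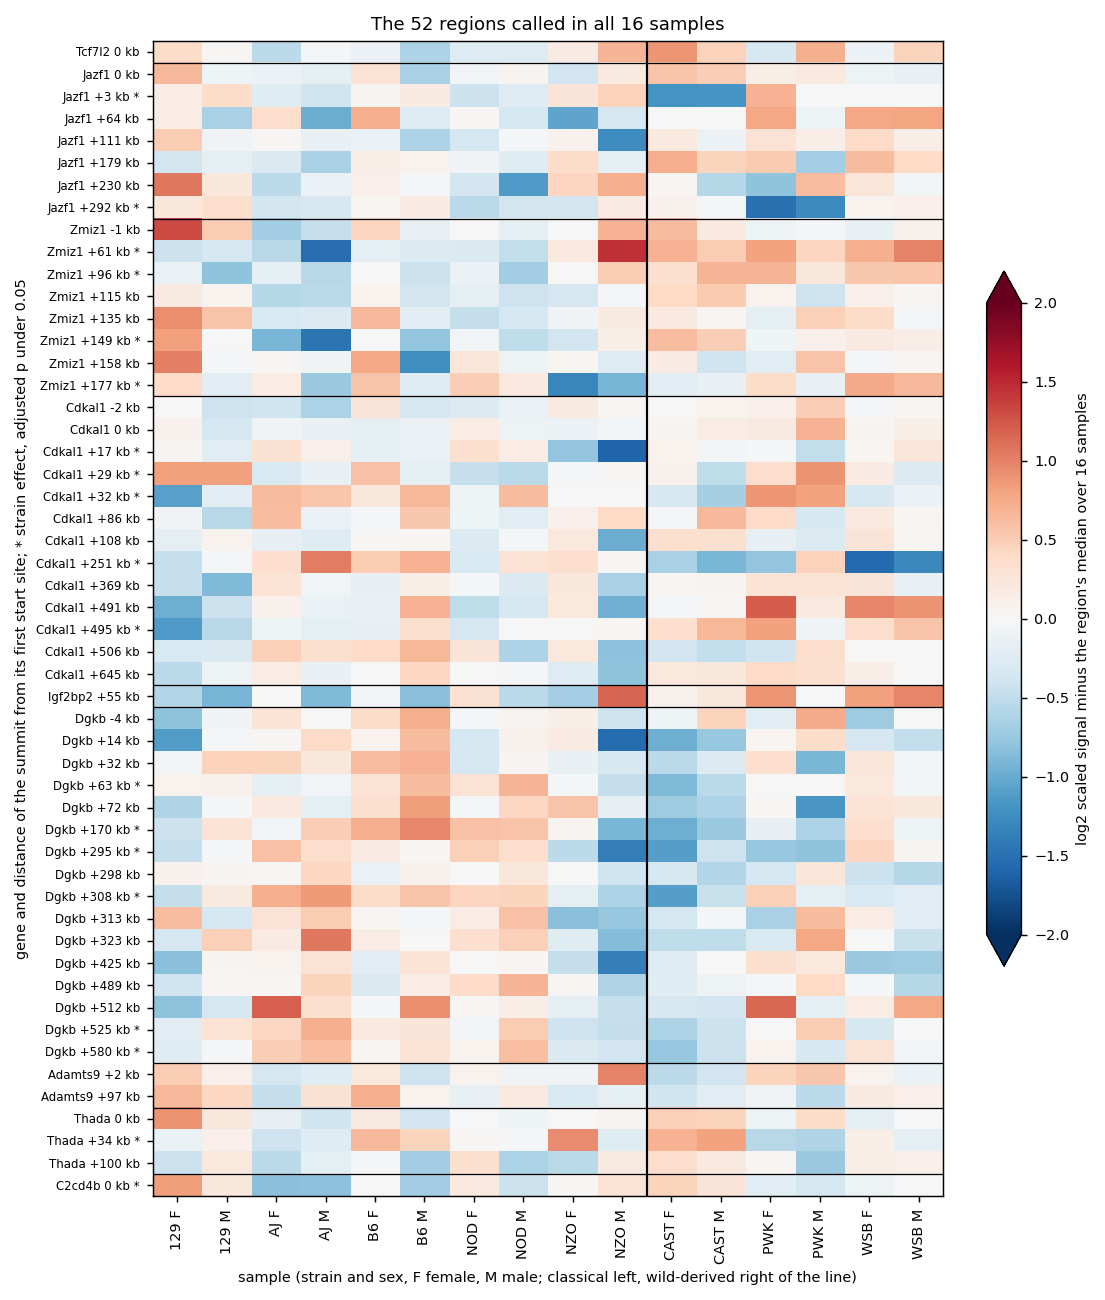
The 52 member regions called in all 16 samples, one row each, grouped by gene and ordered by distance from the first start site. Colour is the log2 scaled signal minus the median of the region over 16 samples, an asterisk marks a strain effect, and the line separates the 10 classical from the 6 wild-derived samples. Most Dgkb rows are blue in the NZO male and in CAST, and the female and the male of NZO often differ.

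The second comparison set wild-derived against classical strains, with the strain as the unit. No member region passed (0 of 52, limma on 8 strain means), against 0.00733% of all shared regions higher and 0.0269% lower in wild-derived strains. At an unadjusted p under 0.05 there were 7 regions (13.5%, against 12.1% of all shared regions), and limma on 16 samples with the strain as a correlated block also called 0, against 0.581% of all. The smallest adjusted p was 0.231, at a second Zmiz1 intron region (chr14:25554629-25555658), with a mean of 2.09 ± 0.26 (SD, 6 samples) in wild-derived and 1.28 ± 0.36 (10 samples) in classical strains. At Igf2bp2, the only shared region (intronic, chr16:22108048-22108477) had 0.781 to 1.52 in wild-derived samples and 0.406 to 0.953 in classical ones but for the NZO male at 1.75 (log2 difference 0.79 ± 0.27 SE, adjusted p = 0.271). With 3 strains against 5 and few calls anywhere, these values do not show that the classes are alike.

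The third comparison set NZO, a strain known for obesity and type 2 diabetes, against the mean of the other 7. No member region was higher in NZO and 2 were lower, against 2.32% of all shared regions higher and 2.87% lower. At the Cdkal1 exon region (chr13:29838625-29839115, coding and untranslated exon sequence, GC content 34%), NZO had 0.383 and 0.218 and the other 14 samples 0.469 to 0.826, with no overlap. NZO was lower by a log2 change of -1.16 ± 0.19 (SE, adjusted p = 0.00832). At the Zmiz1 intron region (chr14:25636200-25636898), NZO had 0.198 and 0.255 and the others 0.291 to 0.821, again with no overlap (log2 change -1.20 ± 0.23, adjusted p = 0.0138). The NZO call of this Zmiz1 region was lost with no centring and with mean in place of summit signal (adjusted p up to 0.222). The count was 15 without the NZO female (28.8% of members against 27.5% of all shared regions, so the jump was genome-wide) and 1 without the NZO male (1.92% against 0.291%), when the Cdkal1 region had an adjusted p of 0.155 and the Zmiz1 region one of 0.0331. It was 4 without the 129 female (7.69% against 5.77%) and 0 with no centring (0.171% of all), while with equal numbers of peaks neither region was called in all 16 samples and so neither was tested.

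Below the threshold, NZO had the lower value in 36 of 52 member regions (69.2%), against 52.6% of all shared regions. In Dgkb this was 15 of 16 regions, with a median log2 difference of -0.48, in Cdkal1 10 of 13 and in Zmiz1 5 of 8. Without the NZO male, 31 of 52 member regions were lower, with 9 of 16 in Dgkb (median -0.18), 5 of 13 in Cdkal1 (median 0.04) and 7 of 8 in Zmiz1, and after centring within GC bins 30 of 52 were, with 12 of 16 in Dgkb (median -0.20). The matching shares of all shared regions in these alternative fits were not computed, so these counts have no background. Beside the NZO difference stand the high GC slope of the NZO male, its Krt19 and Sox9 promoter peaks and its high summed leukocyte signal. Their part in the difference was not tested. The region of Igf2bp2 moved the other way with that library, from a log2 difference of 0.27 with both NZO samples to -0.88 without the male.

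The fourth comparison was between the sexes. With strain in the model, limma called 0 of 52 member regions, and 0.0% of all shared regions, at an adjusted p under 0.05. There were 5 member regions at an unadjusted p under 0.05 (9.62%, against 3.96% of all shared regions), among them 3 of Jazf1, and the smallest adjusted p was 0.999. The median log2 difference of females from males was 0.08 over the members and -0.01 over all shared regions. The 8 females and 8 males are also the pairs within strains, so the spread that the strain test rests on includes any difference between the sexes that varies by strain.

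A longer list of 39 other genes at type 2 diabetes loci, Slc30a8, Kcnj11, Abcc8 and Pparg among them, was taken by the same rule. It held 771 regions, of which 100 (12.97%) were called in all 16 samples. Of these 32 were called for strain (32.0%, background 35.7%), 0 were higher and 1 was lower in NZO, and none was called for class or sex by limma. Regions just beyond the windows show what the rule left out, and which gene they belong to was not examined. A region 438 bases past the 3′ end of Thada (chr17:84185000-84189637) was called in all 16 samples with a median scaled signal of 2.01, one 3704 bases upstream of the Zmiz1 window (chr14:25451356-25452480) likewise with 0.620, and one 4715 bases past C2cd4b (chr9:67765646-67766647) with 0.894.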

How the data were processed

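ATAC-seq peak lists of 16 islet samples were used. The authors state cutadapt 2.0 for trimming, Bowtie2 2.3.4.1 for alignment of all strains to mm10, Picard 2.9.2 for duplicates and MOSAiCS for peaks of each sample (false discovery rate 0.05). They name no correction for the offset of the transposase. The deposited columns hold the summit signal and the mean signal of each peak, with no depth normalization named, and the deposited −log10 p. The strain lists, made by the authors from both sexes with IDR at 0.05, hold −log10 IDR. No per-sample column was left unmapped (0).

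Regions were merged, assigned to genes of GENCODE M21 and scaled as described (Python 3.11.15, pandas 2.3.3, pysam 0.24.0). Tests used limma 3.58.1 in R 4.3.3 on log2(summit signal + 1), so fold changes of low regions are understated. Since the values are peak signals, no count test was run. The fits were tested on simulated data. Samples were grouped by the strain and sex in the labels. Since nothing says that the samples come from separate groups of animals, p-values measure the spread between these samples. The members, the gene, motif and marker lists and the tests were chosen with earlier results of these data known. Regions named were the promoter, the strongest and the smallest-p region of each gene, the 10 regions with the smallest strain p, those past the NZO, class or sex threshold, and the 5 strongest regions of 1 strain. Marker genes were read as peaks at their promoters. Alternatives covered the pseudocount (10), centring, normalization, mean signal, regions called in at least 12 samples, equal list lengths, model terms and leaving out each sample or strain. A mean-variance trend and centring within GC bins were chosen after seeing the data. Chromosome X was not used, and 1 further gene and 1 sequence are not reported here.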

Additional observations from a re-analysis of the deposited data

Results flagged for a closer look

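Within the 10 classical and the 6 wild-derived samples, 46 groups of values of promoter and smallest-p regions were checked for a sample set apart from the rest (Dixon's criterion). Chance flags about 1 in 20 such groups, and 6 values were flagged. The NZO male was the highest classical sample at the Zmiz1 region chr14:25519617-25520999, at 3.33 with the next at 1.38, and at the Igf2bp2 region chr16:22108048-22108477, at 1.745 with the next at 0.953. The 129 female was the highest classical sample at the Thada promoter, at 3.98 with the next at 2.49, and at the Zmiz1 region chr14:25606092-25609106, at 1.845 with the next at 1.145. The NZO male and the 129 female also had the steepest GC slopes of all samples (1.78 and 1.58), whose part was not tested. The PWK male was the highest wild-derived sample at the Cdkal1 promoter, at 2.125 with the next at 1.48, and at the Cdkal1 region chr13:29604309-29604608, at 0.688 with the next at 0.321. A different effect of sex in wild-derived and classical strains was also tested with limma. No member region had an adjusted p under 0.05 for it, and 0 had an unadjusted p under 0.05.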

How the results depend on the processing

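The 19 member regions called for strain became 31 with no centring (59.6% of members against 63.2% of all regions), 10 with mean signal (19.2% against 27.8%) and 12 of the 108 regions called in at least 12 samples (11.1% against 18.3%), and 7 to 30 when a sample or a strain was left out. The 2 regions called for NZO became 0 with no centring and 0 with equal numbers of peaks, where neither was among the 42 regions tested, and 1 to 15 with a sample or strain left out. Centring within GC bins, chosen after seeing the data, gave 20 (38.5% against 40.1%) and 2. The 52 regions called in all 16 samples became 34 when only the more significant 50% of each list was kept (6.43% of members against 7.05% of all regions). They became 2 where peaks had to cover 50% of the region (0.378% against 1.09%), and 52 to 57 when a sample was left out. The cause of these shifts was not tested. The counts for class and sex were 0 under every alternative run. The test of sex, with strain in the model, pairs the female and male of each strain, and the labels carry no replicate numbers that would pair samples otherwise. Read depth of single samples was not used here, so no limit of detection is given for a missing peak.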
